A study of Homo sapiens with 24 samples.

Results

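The samples described here were 2 SET2 sublines that went on growing in a JAK inhibitor, 1 kept in BMS911543 and 1 kept in SAR302503, compared with each other gene by gene. They were chosen by their labels, and they account for 6 of the 24 libraries in the series, 3 for each line. SET2 is an established human megakaryoblastic line, derived from a myeloproliferative neoplasm, that needs the tyrosine kinase JAK2 to grow. BMS911543 is a JAK2-selective inhibitor and SAR302503, or fedratinib, is another inhibitor of JAK2; the labels call the inhibitors of the persistent lines type I. Both lines were grown without a break in RPMI1640 medium with 20% fetal calf serum plus their inhibitor, and the labels give neither concentrations nor the time in culture. There was 1 line per inhibitor, so a difference between inhibitors and a difference between 2 sublines cannot be told apart. Nothing in the labels says that the 3 replicates of a line were separate cultures, so p-values measure only the spread between these libraries, which may be technical. The other groups of the series are untreated naive SET2 cells, lines persistent to CYT387 or to INC424, and naive cells given INC424 for 4 h or 48 h or DMSO for 4 h. Naive and INC424 persistent levels (n = 3 libraries each) are set beside some genes as a description only. The CYT387 line is not, because squamous epithelial genes took 0.740% of normalised counts in 1 of its 3 libraries.

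JAK2 relays signals from cytokine receptors such as EPOR to STAT transcription factors, which switch on feedback inhibitors of the SOCS family, PIM kinases and survival genes. The same receptors also feed the MAPK cascade, read out by immediate early genes, DUSP phosphatases and ETV factors. Lines that tolerate such drugs can regain part of this signalling, and the output genes of both cascades read it. MHC class II molecules present peptides to helper T cells and are switched on by the coactivator CIITA, and the ATF4 pathway raises amino acid synthesis and tRNA charging under amino acid shortage or other stress.

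Poly(A) RNA was sequenced to between 23108234 and 33824160 reads assigned to genes per library. Levels are the authors' normalised read counts, listed in the order of libraries 1, 2 and 3 of a line. Differences are log2 values of the BMS911543 line minus the SAR302503 line, with the standard error of the fit, so a positive value means higher in the BMS911543 line. They come from limma on log2(normalised count + 1), which understates differences of genes with few reads, and "called" means an adjusted p below 0.05 over all genes tested. Levels are not corrected for transcript length, so they are compared between lines and not between genes. In such bulk libraries, fewer cells of a type and less RNA per cell cannot be told apart.

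Megakaryocytic identity genes were present in every library: ITGA2B, the platelet integrin alpha chain, was 65207, 54842 and 53722 in the BMS911543 line and 75353, 59616 and 93257 in the SAR302503 line, and GATA1, GP9, NFE2 and GFI1B were also well detected. PF4, a platelet chemokine, was 0, 3.02 and 0 and 0, 0 and 0. Genes of squamous epithelium, a cell type foreign to this culture, stood apart in the SAR302503 libraries. They took 0.0156%, 0.0145% and 0.0152% of normalised counts in the BMS911543 libraries and 0.0211%, 0.0385% and 0.146% in the SAR302503 libraries, against 0.0176% to 0.0221% in naive cells. Most of the share in the BMS911543 and naive libraries was JUP, a junction gene that was not called. JUP was 3854, 3409 and 2969 against 3394, 3064 and 7454, with 5235 ± 329 (SD) in naive cells. The share is therefore a coarse measure, and the keratins separate the libraries more widely. KRT14, a basal keratin, was 4.56, 0 and 12.2 against 482, 837 and 10072, and KRT5, its partner, was 7.29, 7.05 and 218 against 657, 2301 and 9878. SAR302503 library 3 was therefore the highest in KRT14 and KRT5, but libraries 1 and 2 lay above all 3 BMS911543 libraries as well, and BMS911543 library 3 held some KRT5. Of 18 squamous genes tested, 13 were higher in the SAR302503 line and 0 in the BMS911543 line (median log2 -4.22), and the counts were 13 and 1 without SAR302503 library 3 and 10 and 0 without BMS911543 library 1. Results that rest on SAR302503 library 3 are given without it as well, and the part of such RNA in other differences was not tested. Of 10 stroma and vessel genes tested, 1 was higher in each line, or 3 and 2 without SAR302503 library 3 and 1 and 0 without BMS911543 library 2 or 3 or SAR302503 library 1 or 2. CDH5, an endothelial cadherin, was 171, 157 and 141 against 48.4, 44.5 and 36.1 (log2 1.84 ± 0.27, limma adjusted p = 0.00083). KDR, an endothelial receptor, was 18.2, 1.01 and 12.2 against 33.4, 43.2 and 59.0 (log2 -2.49 ± 0.77, limma adjusted p = 0.0353), lost in 7 of 22 alternatives. Other SET2 groups expressed both: CDH5 was 43.2 ± 8.78 (SD) in naive cells and 110 ± 2.73 (SD) in the INC424 persistent line. KDR was 149 ± 25.0 (SD) and 2070 ± 79.9 (SD) there. TAGLN and MMP2 were expressed in both lines without a call (log2 0.32 and -0.35), COL1A1 was 33.7, 12.1 and 27.4 against 32.2, 7.62 and 113 and TGFBI 2.74, 1.01 and 17.3 against 6.91, 230 and 13.2, while DCN, LUM and COL3A1 were at or near 0. The B cell marker CD79A was 169, 129 and 125 against 793, 831 and 1062. Its naive level was 911 ± 46.2 (SD), so the SAR302503 line was near naive cells and the BMS911543 line below them.

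**Figure D1:**
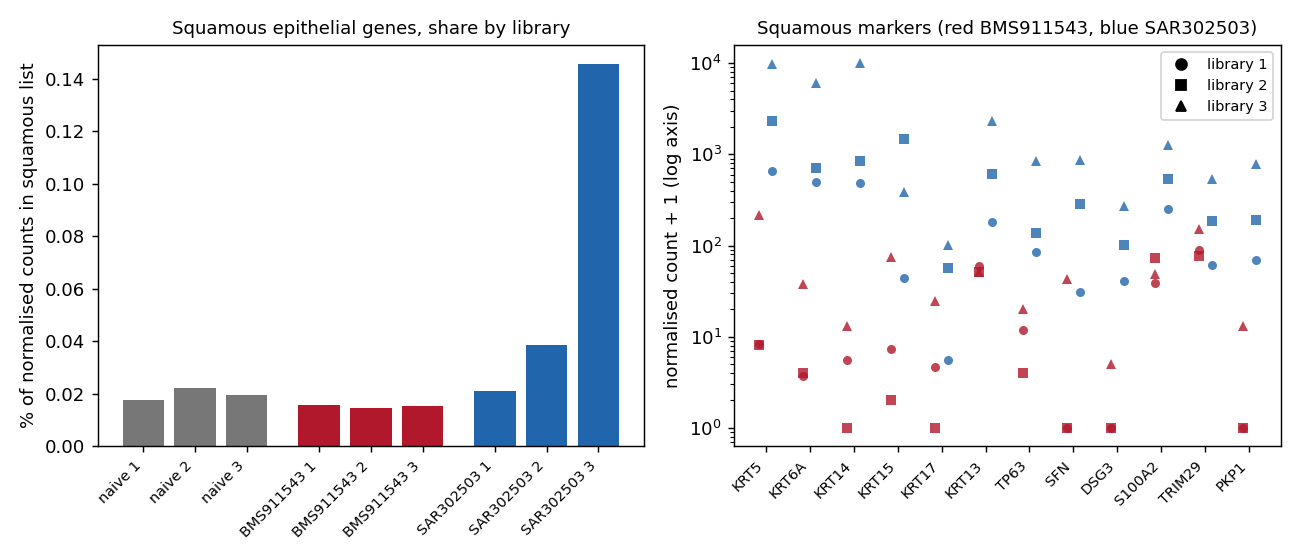
Share of normalised counts in squamous epithelial genes by library (left, percent, bars from 0) and levels of 12 squamous markers in the 6 libraries (right, normalised count + 1, log axis, 1 point per library). SAR302503 library 3 reaches 0.146%, while the BMS911543 libraries stay between 0.0145% and 0.0156%, most of it JUP.

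The lines differed widely. A gene was tested where 3 or more of the 6 libraries reached a count of 10, which 17292 of 25082 genes did, and 4558 of these (26.4%) were called. Of these, 2018 (11.7% of genes tested) were higher in the BMS911543 line and 2540 (14.7%) in the SAR302503 line. These shares are the background against which counts of list members are read. Where the counts of a list lie near them, the counts are no result about that list. With upper-quartile scaling the balance turned, to 2482 higher in the BMS911543 line and 2085 in the SAR302503 line, a shift of 0.0831 in the median log2 difference, so the direction of differences near 0 depends on the scaling. Past a 2-fold difference 2340 genes were called, past 4-fold 906 and past 16-fold 192. The 2 groups of libraries did not overlap for 7497 genes (43.4%), 4518 of the called genes among them.

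Libraries of one line lay closer together than libraries of different lines. The root mean square log2 difference was 0.50 to 0.56 between BMS911543 libraries, 0.67 to 0.89 between SAR302503 libraries, and 1.12 to 1.26 across lines. SAR302503 library 3 was the farthest from its group. Without it 7551 genes were called (43.7%), 3496 (20.2%) higher in the BMS911543 line and 4055 (23.5%) in the SAR302503 line, and 4476 of the 4558 kept their call and direction. Leaving out BMS911543 library 1, 2 or 3 or SAR302503 library 1 left 2661, 2283, 2578 and 2881 calls, and leaving out SAR302503 library 2 left 4492. Counts of list members moved with these totals, and the values without a library are given where they depart by more than 1.5 times. None of the 4558 calls changed direction between libraries run once and libraries run again or on 2 lanes. For the 4518 called genes without overlap between the lines this outcome was fixed in advance, so it is no separate check.

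In most called genes the naive mean lay between the means of the lines, counted without a margin or a test. Genes called for a gap between the lines leave more room for a mean inside it. The share over all genes was not counted. The naive mean fell between the means of the lines for 1262 (62.5%) of the 2018 genes higher in the BMS911543 line and for 1480 (58.3%) of the 2540 higher in the SAR302503 line. It lay above both lines for 347 and 757 of them and below both for 409 and 303.

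**Figure D2:**
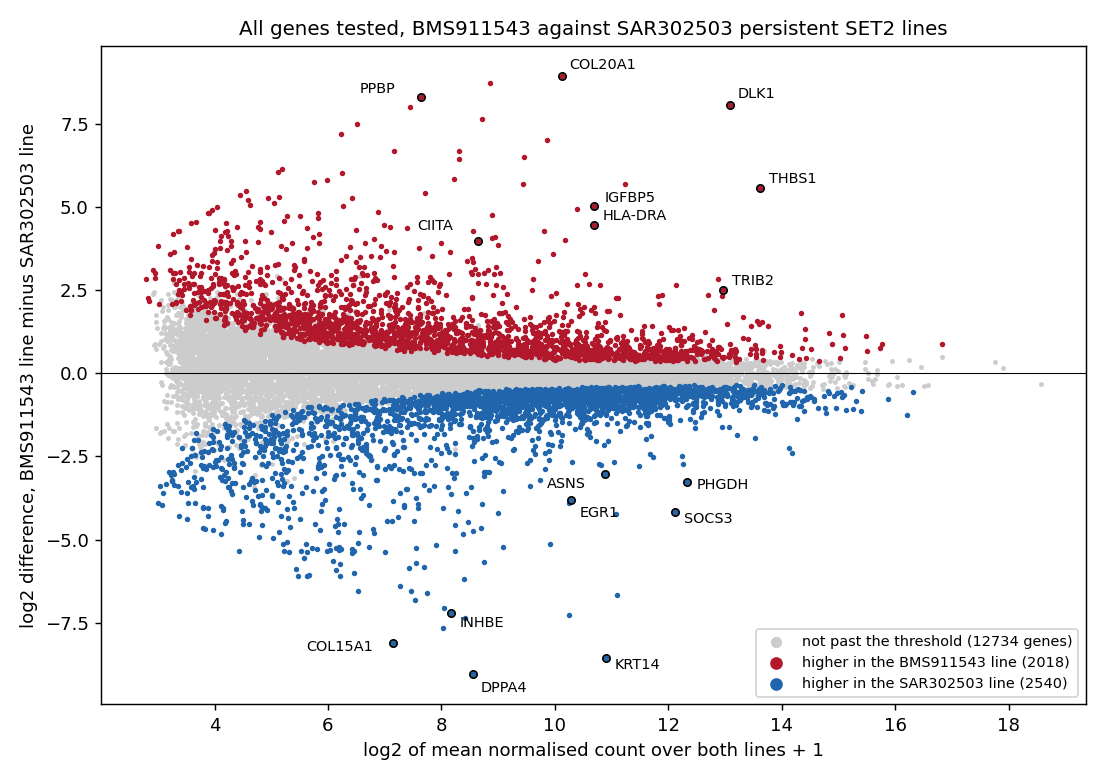
Log2 difference between the lines (vertical axis) against log2 of the mean normalised count over both lines + 1 (horizontal axis), 1 point per gene for 17292 genes. Red points are the 2018 genes called higher in the BMS911543 line and blue points the 2540 called higher in the SAR302503 line, with 16 genes described in the text circled.

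MHC class II genes separated the lines, and their list had the most positive median of the 45. Of 11 tested, 10 were higher in the BMS911543 line and 0 in the SAR302503 line, against 11.7% and 14.7% of all genes, and the median log2 difference was 3.91 (all genes tested, -0.0052). The count stayed at 10 in each fit that left out 1 library. HLA-DRA, the alpha chain of HLA-DR, was 3427, 2788 and 3262 in the BMS911543 line and 151, 116 and 165 in the SAR302503 line (log2 4.46 ± 0.18, limma adjusted p = 2.2e-07). The naive level was 2319 ± 334 (SD), so the BMS911543 line was above naive cells and the SAR302503 line far below them.

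The beta chain HLA-DRB1 had the same direction, at 2896, 2394 and 2508 against 74.8, 63.5 and 122 (log2 4.94 ± 0.24, limma adjusted p = 7.6e-07). HLA-DRB5, whose reads can be split with HLA-DRB1 because the genes are nearly identical, was 623, 557 and 563 against 3.45, 10.2 and 20.3 (log2 5.83 ± 0.48, limma adjusted p = 1.9e-05). The HLA-DP pair showed log2 differences of 2.99 for HLA-DPA1 and 3.91 for HLA-DPB1. For the HLA-DQ pair they were 5.27 for HLA-DQA1 and 3.04 for HLA-DQB1, where the levels were 745, 575 and 652 against 71.4, 91.5 and 74.9. No library of one line overlapped the other line in any of these 7 genes.

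The accessory genes were less uniform. CD74, the invariant chain that escorts class II molecules, was 6525, 5744 and 5744 against 1169.7, 971 and 1491 (log2 2.33 ± 0.17, limma adjusted p = 7.3e-06). HLA-DMB, a chain of the peptide exchanger HLA-DM, was 64.7, 68.5 and 64.0 against 0, 0 and 21.1 (log2 4.57 ± 1.03, limma adjusted p = 0.00919). SAR302503 library 3 was the only one of that line with reads of HLA-DMB, without which the log2 difference was 6.06, and the call was lost with DESeq2 (adjusted p = 0.224). HLA-DMA, the other chain, differed least among the called members (1203, 1230.2 and 1002 against 615, 658 and 739.8, log2 0.77 ± 0.16, limma adjusted p = 0.00562). HLA-DOB, part of the HLA-DM inhibitor HLA-DO, was 239.8, 283 and 223 against 254, 206 and 137 and was not called (log2 0.35, 95% interval -0.21 to 0.92, limma adjusted p = 0.333). HLA-DOA, its partner, did not pass the filter on low values.

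CIITA, the coactivator of these genes, followed them at 836, 779 and 646 against 38.0, 50.8 and 51.1 (log2 3.99 ± 0.23, limma adjusted p = 1.6e-06). It was 651 ± 71.9 (SD) in naive cells and 59.8 ± 13.7 (SD) in the INC424 persistent line. The factors that hold CIITA on DNA did not share its difference. RFX5 was 3801, 3964 and 4449 against 3930.5, 4137 and 3509 (log2 0.08, 95% interval -0.21 to 0.37), and RFXAP, RFXANK, NFYA, NFYC and CREB1 were not called either. Without SAR302503 library 3, RFXAP was called lower and NFYC higher in the BMS911543 line (limma adjusted p = 0.0168 and 0.0206). NFYB, a subunit of the CCAAT-binding factor, was lower in the BMS911543 line (519.7, 517 and 613 against 897, 1136 and 683, log2 -0.69 ± 0.20, limma adjusted p = 0.0284), and this call was lost in 6 of the 22 alternative settings.

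Promoters of class II genes are known for an X box, bound by RFX and CREB, and a Y box, bound by NF-Y. The 250 bases before the start of transcription are shown for 5 members that hold 1 or both of the motifs below, 4 called and HLA-DOB not called. The called genes HLA-DPA1, HLA-DPB1, HLA-DQA1 and CD74 were not among members found to hold either, and they are not shown. Sequences are from RefSeq on GRCh38.p14, 5′ to 3′ in gene orientation, all on the minus strand, and are the reference, not the sequence of SET2. Capitals mark the letters CTGATGATG, the core of the X box, and CTGATTGG, the Y box, searched on both strands. They lie at HLA-DRB1 chr6:32589849-32590098, HLA-DQB1 chr6:32666658-32666907, HLA-DMA chr6:32953098-32953347, HLA-DMB chr6:32941029-32941278 and HLA-DOB chr6:32817003-32817252.
HLA-DRB1: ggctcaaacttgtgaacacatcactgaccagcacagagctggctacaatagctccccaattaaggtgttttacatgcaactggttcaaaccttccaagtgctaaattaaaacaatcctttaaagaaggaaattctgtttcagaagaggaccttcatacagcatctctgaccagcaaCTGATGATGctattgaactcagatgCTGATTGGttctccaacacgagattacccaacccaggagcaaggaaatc
HLA-DQB1: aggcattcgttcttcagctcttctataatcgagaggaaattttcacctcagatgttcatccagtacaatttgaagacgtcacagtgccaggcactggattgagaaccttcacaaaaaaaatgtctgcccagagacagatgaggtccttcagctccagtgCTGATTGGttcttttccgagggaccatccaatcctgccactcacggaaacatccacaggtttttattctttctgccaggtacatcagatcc
HLA-DMA: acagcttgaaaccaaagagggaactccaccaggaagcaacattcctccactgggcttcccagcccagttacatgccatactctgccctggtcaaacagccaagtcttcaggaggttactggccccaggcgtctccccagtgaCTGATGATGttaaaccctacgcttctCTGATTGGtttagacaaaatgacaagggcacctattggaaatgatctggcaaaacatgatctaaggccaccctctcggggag
HLA-DMB: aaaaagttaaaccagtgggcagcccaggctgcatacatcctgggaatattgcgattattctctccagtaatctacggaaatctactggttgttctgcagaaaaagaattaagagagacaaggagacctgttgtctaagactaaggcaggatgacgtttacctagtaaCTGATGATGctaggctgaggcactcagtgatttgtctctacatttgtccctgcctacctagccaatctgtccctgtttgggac
HLA-DOB: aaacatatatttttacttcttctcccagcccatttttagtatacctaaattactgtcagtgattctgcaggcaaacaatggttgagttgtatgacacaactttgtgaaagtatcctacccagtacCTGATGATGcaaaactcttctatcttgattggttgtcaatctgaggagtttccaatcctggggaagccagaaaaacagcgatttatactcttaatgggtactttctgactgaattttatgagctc

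In HLA-DRB1 the X box letters begin 74 bases before the start and the Y box letters 49 bases before it, and in HLA-DMA they begin 108 and 82 bases before it. Of the 12 class II genes listed, 11 had a promoter in the table. CTGATGATG was found in 4 of these (HLA-DRB1, HLA-DMA, HLA-DMB and HLA-DOB) and in 0.222% of the 35116 promoter windows of this length. CTGATTGG was found in 4 (HLA-DRB1, HLA-DRB5, HLA-DQB1 and HLA-DMA) and in 3.81% of the windows. HLA-DOB held the X box letters although its RNA was not called, so the letters did not sort called from uncalled members. The motifs were picked after the sequences had been read, and a match is a description, not a binding site.

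**Figure D3:**
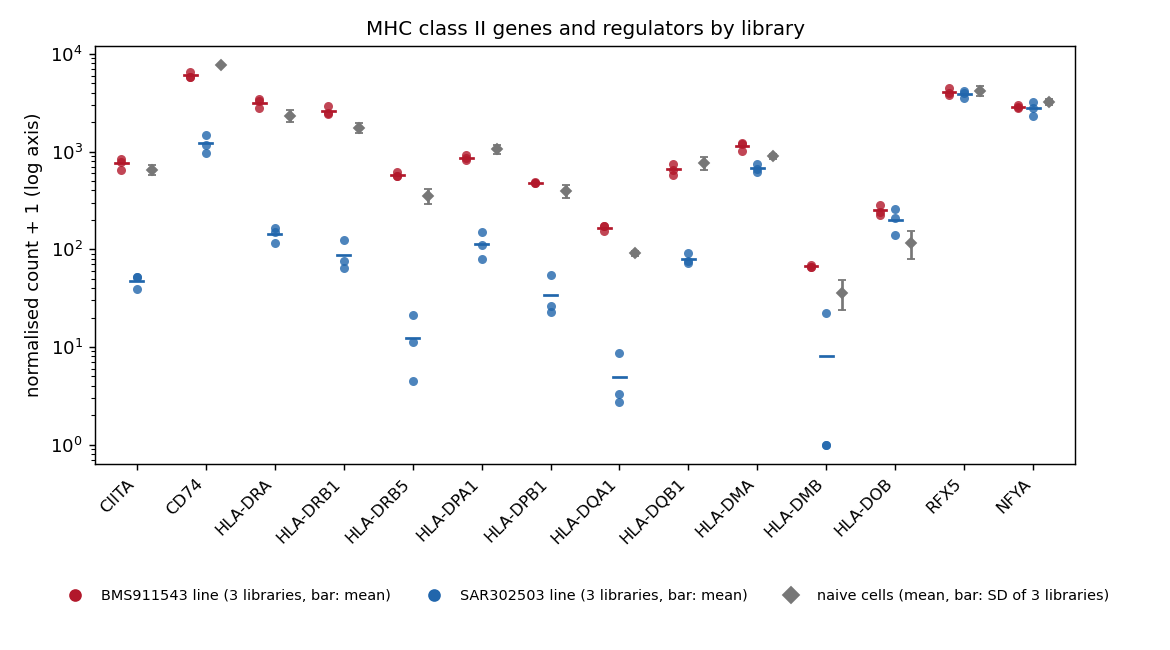
Normalised counts + 1 (log axis) of MHC class II genes and their regulators, with 1 point per library, a bar at the mean of each line, and the naive mean with its SD. HLA-DRA lies between 2788 and 3427 in the BMS911543 line and between 116 and 165 in the SAR302503 line, while RFX5 and NFYA overlap.

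Calls among MHC class I genes were mostly in the opposite direction, at a smaller size. Of 17 genes of class I and peptide loading, 8 were higher in the SAR302503 line and 1 in the BMS911543 line (median log2 -0.47). HLA-B, a classical class I heavy chain, was 48432, 42649.8 and 42752 against 97293, 94751 and 126850 (log2 -1.24 ± 0.15, limma adjusted p = 0.00027), and naive cells had 96213 ± 2586 (SD). HLA-C and HLA-E differed by -1.12 and -1.21. Class I heavy chains are closely similar in sequence, so reads can be split among them. The 8 calls became 4, 5 and 11 without BMS911543 library 1, BMS911543 library 2 and SAR302503 library 3.

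JAK2, the target of both inhibitors, was higher in the BMS911543 line, at 6724, 6368 and 6525 against 4332, 5205 and 2872 (log2 0.70 ± 0.19, limma adjusted p = 0.0228). The naive level was 3958 ± 368 (SD), close to that of the SAR302503 line. No libraries overlapped, but SAR302503 library 3 was the lowest and the call was lost without BMS911543 library 1, 2 or 3 or SAR302503 library 1 (limma adjusted p 0.0578 to 0.0882) and without a mean trend in the variance (0.0877). JAK3 had a smaller difference in the other direction (7479, 7029 and 5974 against 9072, 8143 and 10437, log2 -0.43 ± 0.14, limma adjusted p = 0.0468) and lost its call in 12 of 22 alternatives. JAK1, TYK2, STAT5A and STAT5B were not called, with log2 differences of -0.06, 0.11, -0.14 and -0.10. For STAT5A, a main JAK2 effector, the 95% interval was -0.43 to 0.15. Of the 11 kinases and STAT factors tested, 1 was higher in each line, near the 11.7% and 14.7% of all genes tested. This became 0 in each without BMS911543 library 1, 2 or 3 or SAR302503 library 1, and 3 in each without SAR302503 library 3.

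Among 24 cytokine and growth factor receptors, 4 were higher in each line, not far from the 11.7% and 14.7% of all genes tested. The 4 higher in the BMS911543 line became 1 without BMS911543 library 1. IL9R, a receptor chain that pairs with the common gamma chain, was 543, 751 and 734 against 65.6, 39.4 and 80.1 (log2 3.48 ± 0.28, limma adjusted p = 1.8e-05). OSMR, the oncostatin M receptor, was 3.65, 2.01 and 14.2 against 78.3, 183 and 181 (log2 -4.53 ± 0.62, limma adjusted p = 0.00054). IL2RA, a STAT5 target and interleukin 2 receptor chain, was 2.74, 4.03 and 4.07 against 64.5, 73.7 and 39.6 (log2 -3.68 ± 0.49, limma adjusted p = 0.00049), and both lines were far below the naive level of 1249.6 ± 61.7 (SD). IL10RA was 20.1, 18.1 and 27.4 against 1.15, 5.08 and 0 (log2 3.26, and 2.64 without SAR302503 library 3), a call lost without BMS911543 library 1 or 3 (limma adjusted p 0.0529 and 0.063). The lines did not overlap in any of these receptors.

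Several targets of JAK-STAT signalling were higher in the SAR302503 line. Of 20 tested, 9 were higher there, 1 was higher in the BMS911543 line and 10 were not called (median log2 -0.54). The 9 became 7 to 11 when 1 library was left out, and the 1 became 2 without SAR302503 library 3. SOCS3, a STAT-induced brake on the receptors, was 466, 487 and 431 against 7326, 7277 and 10599.6 (log2 -4.16 ± 0.17, limma adjusted p = 2.2e-07). Naive cells had 4021 ± 266 (SD) and the INC424 persistent line 1057 ± 120.4 (SD), so the lines fell on either side of naive cells. PIM1, a survival kinase induced by STAT5, was 6645, 5768 and 5190.1 against 28618, 29698 and 35224 (log2 -2.41 ± 0.14, limma adjusted p = 2.1e-06), and here the SAR302503 line was near the naive level of 33429.7 ± 930.1 (SD).

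ID1, an inhibitor of differentiation factors, was 367, 333 and 292 against 1182, 947 and 1850.2 (log2 -1.95 ± 0.24, limma adjusted p = 0.00027). LRRC32, which anchors latent TGF-beta on the cell surface, was the member higher in the BMS911543 line (491, 388 and 409.6 against 181, 149 and 178, log2 1.34 ± 0.20, limma adjusted p = 0.00091). Both lines exceeded naive cells in it (80.0 ± 8.25 (SD)). The 10 members that were not called included the classical STAT5 targets CISH and SOCS2, which the naming rule did not select and which were looked up after the values were seen (log2 0.09 and -0.39), though SOCS2 was called without SAR302503 library 3 (limma adjusted p = 0.0429).

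Calls among MAPK output genes were mostly in the same direction. Of 23 tested, 12 were higher in the SAR302503 line and 3 in the BMS911543 line (median log2 -0.84), and leaving out 1 library gave 9 to 14 and 1 to 3, the 1 without BMS911543 library 1. ETV4, an ETS factor induced by ERK, was 196, 141 and 119 against 2101, 1793 and 2906 (log2 -3.89 ± 0.23, limma adjusted p = 2.4e-06). EGR1, an immediate early transcription factor, was 211, 172 and 119 against 2234, 2267 and 2446 (log2 -3.82 ± 0.21, limma adjusted p = 1.4e-06). In naive cells EGR1 was 7592 ± 374 (SD), above both lines, whereas the naive ETV4 level of 2722 ± 240.1 (SD) was near that of the SAR302503 line.

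ETV1, a relative of ETV4, was 0.912, 4.03 and 4.07 against 31.1, 45.7 and 11.4 (log2 -2.86 ± 0.71, limma adjusted p = 0.0144), and its call was lost without BMS911543 library 1, SAR302503 library 1 or SAR302503 library 2 (limma adjusted p 0.0537 to 0.0632). FOSB, an AP-1 subunit, went the other way at 203, 167 and 66.1 against 12.7, 52.1 and 11.4 (log2 2.67 ± 0.59, limma adjusted p = 0.00846). Without BMS911543 library 1 it was not called (limma adjusted p = 0.0538). EGR1 and FOSB, both immediate early genes, therefore differed in opposite directions.

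**Figure D4:**
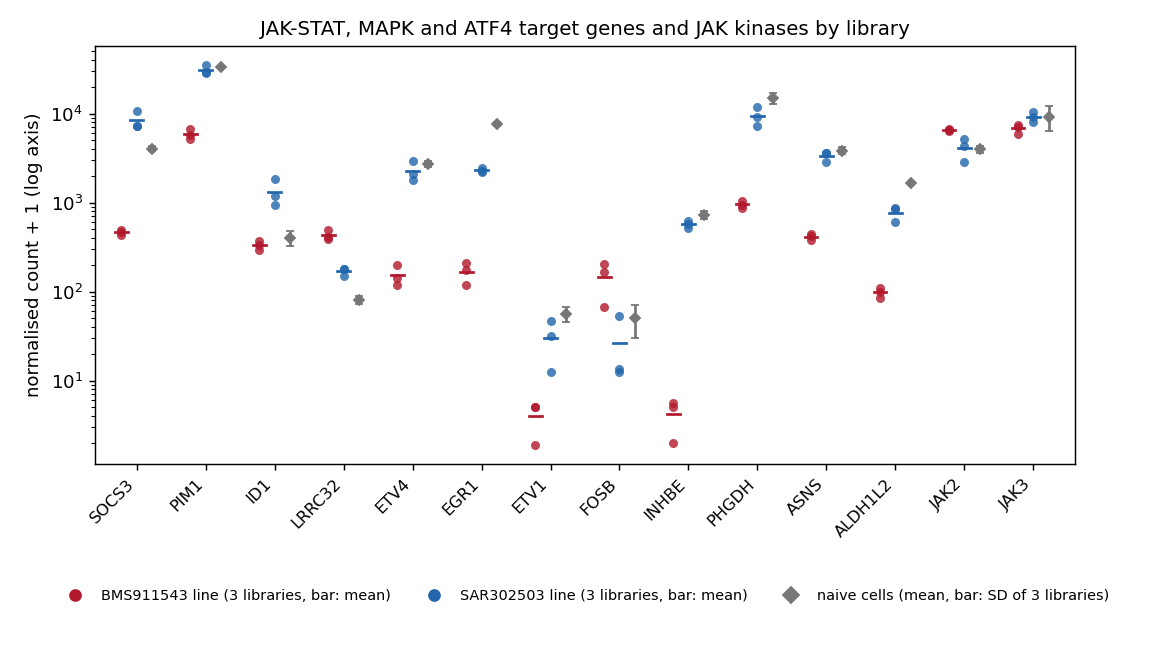
Normalised counts + 1 (log axis) of JAK-STAT, MAPK and ATF4 target genes and of JAK2 and JAK3, with 1 point per library, a bar at the mean of each line and the naive mean with its SD. SOCS3 reads 431 to 487 in the BMS911543 line and at least 7277 in each SAR302503 library.

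Most genes of the ATF4 and amino acid response were lower in the BMS911543 line. Of 34 genes tested, 23 were higher in the SAR302503 line and 1 in the BMS911543 line (median log2 -0.96), with 19 to 28 when 1 library was left out. INHBE, an inhibin subunit induced by ATF4, was 4.56, 1.01 and 4.07 against 517, 574 and 617 (log2 -7.21 ± 0.42, limma adjusted p = 2.1e-06). PHGDH, the first enzyme of serine synthesis, was 1050.4, 945 and 876 against 9045, 7207 and 11934 (log2 -3.27 ± 0.18, limma adjusted p = 1.4e-06). Naive cells had 729 ± 70.0 (SD) for INHBE and 15062 ± 2095 (SD) for PHGDH, so in both genes the SAR302503 line was nearer to naive cells and the BMS911543 line far below.

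ASNS, asparagine synthetase, was 376, 441 and 418 against 3601, 3568 and 2895 (log2 -3.02 ± 0.15, limma adjusted p = 8.6e-07). ALDH1L2, an enzyme of mitochondrial folate metabolism, was 109, 84.6 and 97.6 against 859, 844 and 599 (log2 -2.96 ± 0.22, limma adjusted p = 8.2e-06). The naive level was 3832 ± 328 (SD) for ASNS and 1639 ± 10.6 (SD) for ALDH1L2. ATF4 itself was not called (log2 -0.39, limma adjusted p = 0.0779), and it is named here after its value was seen. INHBE, PHGDH, ASNS and ALDH1L2 kept their calls in all 22 alternative settings.

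The letters TGATGNAA, a known ATF4 response element, stand in the promoters of 6 of the 27 listed genes with a window in the table (ASNS, ATF3, CEBPG, CHAC1, JDP2 and SLC1A5), and in 3.14% of all 35116 windows. The 250 bases before the start are shown for ASNS (chr7:97872409-97872658, minus strand) and for CHAC1 (chr15:40953221-40953470, plus strand), as called members that hold the element; CHAC1 was picked for it after its values were seen. Capitals mark the element, which runs on the opposite strand in CHAC1, and it begins 68 bases before the start of ASNS and 209 before that of CHAC1.
ASNS: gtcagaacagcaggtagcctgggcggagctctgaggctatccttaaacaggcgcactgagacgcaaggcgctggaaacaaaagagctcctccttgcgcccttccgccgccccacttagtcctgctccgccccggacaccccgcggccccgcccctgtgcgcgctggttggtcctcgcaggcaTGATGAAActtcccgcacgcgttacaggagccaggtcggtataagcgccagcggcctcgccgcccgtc
CHAC1: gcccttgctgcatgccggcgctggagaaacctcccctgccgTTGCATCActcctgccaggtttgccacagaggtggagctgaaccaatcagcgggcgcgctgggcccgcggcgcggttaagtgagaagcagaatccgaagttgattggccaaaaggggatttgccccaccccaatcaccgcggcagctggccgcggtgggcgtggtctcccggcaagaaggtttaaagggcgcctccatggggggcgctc

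CHAC1, a glutathione-degrading enzyme, was 132, 123 and 97.6 in the BMS911543 line and 536, 581 and 1044 in the SAR302503 line (log2 -2.55 ± 0.27, limma adjusted p = 0.00011). Its direction was that of ASNS, and the libraries of the lines did not overlap in either gene.

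Genes for cytosolic aminoacyl-tRNA synthetases, many of which are ATF4 targets, were called mostly in the same direction. Of 20 tested, 10 were higher in the SAR302503 line and 1 in the BMS911543 line (median log2 -0.40), and 18 of the 20 differences were negative. The 10 became 6 without BMS911543 library 1 or 2 and 15 without SAR302503 library 3. WARS, the tryptophan enzyme, was 4463, 4019 and 3980.5 against 15188, 15776 and 13730.3 (log2 -1.84 ± 0.12, limma adjusted p = 4.7e-06). CARS, AARS and GARS, for cysteine, alanine and glycine, differed by -0.98, -0.95 and -0.89.

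Endoplasmic reticulum chaperones did not share the shift. Of 24 tested, 4 were higher in the SAR302503 line (all genes, 14.7%) and 1 in the BMS911543 line (all genes, 11.7%), with a median log2 of -0.09. The 4 became 2 without BMS911543 library 1, 2 or 3 or SAR302503 library 1 and 7 without SAR302503 library 3. ERO1L, an oxidase of disulphide formation, was 864, 809 and 917 against 1979, 2572 and 1504 (log2 -1.19 ± 0.19, limma adjusted p = 0.00145). Of 21 heat shock chaperones, 2 were higher in the SAR302503 line, AHSA1 (log2 -0.94) and HSPD1 (log2 -0.54), the second lost in 5 of 22 alternatives. These 2 became 1 without BMS911543 library 1, 2 or 3 or SAR302503 library 1 and 6 without SAR302503 library 3.

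More than 1 in 2 of the listed cell cycle genes were higher in the SAR302503 line. Of 32 S phase genes 18 were, and 0 were higher in the BMS911543 line (median log2 -0.48). The 18 became 10, 7, 7 and 9 without BMS911543 libraries 1, 2 and 3 and SAR302503 library 1, and without SAR302503 library 3 there were 24, with 1 higher in the BMS911543 line. PRIM1, a primase subunit, was 573, 618 and 678 against 1120.2, 1413 and 1159.8 (log2 -0.98 ± 0.16, limma adjusted p = 0.00152). The replication genes GINS2, POLE2 and RFC4 differed by -0.94, -0.90 and -0.87.

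Among 28 genes of G2 and mitosis, 19 had higher levels in the SAR302503 line and 0 in the BMS911543 line (median log2 -0.72), with 14 to 24 when 1 library was left out and 2 higher in the BMS911543 line without SAR302503 library 3. CDK1, the mitotic kinase, was 2388, 2392 and 2413 against 6299.9, 6388 and 4961 (log2 -1.29 ± 0.14, limma adjusted p = 0.00012), with a naive level of 3341 ± 438 (SD) between them. PTTG1, or securin, was 435, 557 and 609.9 against 1272, 1116 and 1522 (log2 -1.29 ± 0.18, limma adjusted p = 0.00073). MAD2L1, a spindle checkpoint gene, differed by -1.23 and HMMR, a spindle protein, by -1.22.

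Regulators of G1 were mixed. Of 12 tested, 2 were higher in the BMS911543 line (all genes, 11.7%) and 4 in the SAR302503 line (all genes, 14.7%). The 2 became 0 without any 1 of the BMS911543 libraries, and the 4 became 7 without SAR302503 library 3. CDKN2D, an inhibitor of CDK4 and CDK6, was 577, 682 and 757 against 2636, 2628 and 3869 (log2 -2.16 ± 0.19, limma adjusted p = 2.5e-05). CCND3, a D-type cyclin, was 9458, 8980 and 8997 against 16760.5, 15337 and 22112 (log2 -0.96), and CDK6, its kinase partner, was 9004, 8455 and 8405 against 5634, 6531 and 3902 (log2 0.72). An inhibitor and a cyclin were therefore both higher in the SAR302503 line. The CDK6 call was lost without any 1 of the BMS911543 libraries (limma adjusted p 0.0523 to 0.0664).

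Of 22 p53 targets, 9 were higher in the SAR302503 line and 3 in the BMS911543 line. TP53INP1, a stress protein, was 712, 832 and 865 against 271, 244 and 174 (log2 1.82 ± 0.21, limma adjusted p = 0.00017), while SESN2, which is also an ATF4 target, was 543, 344 and 417 against 1128, 1123 and 1529.7 (log2 -1.54 ± 0.21, limma adjusted p = 0.00049). In the BCL2 family 6 of 16 genes were higher in the SAR302503 line and 0 in the BMS911543 line, and the 6 comprised both kinds of member. BCL2L1, which protects from apoptosis, was 4508, 4264 and 4451 against 7978, 6793 and 9899 (log2 -0.88 ± 0.15, limma adjusted p = 0.00201). BBC3 and PMAIP1, which promote it, differed by -1.08 and -0.80. The 6 became 4 without BMS911543 library 1, 2 or 3 or SAR302503 library 1.

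Most glycolysis and hypoxia genes were higher in the SAR302503 line, 20 of 32 against 1 in the BMS911543 line (median log2 -0.77), with 17 to 21 when 1 library was left out and 3 higher in the BMS911543 line without SAR302503 library 3. PFKFB4, which makes an activator of glycolysis, was 815, 641 and 560.1 against 2791, 2554 and 2822 (log2 -2.03 ± 0.16, limma adjusted p = 1.7e-05), the latter at the naive level of 2794 ± 221 (SD). CA9, a hypoxia-induced carbonic anhydrase, was 10.03, 8.05 and 11.2 against 79.4, 68.6 and 52.0 (log2 -2.64 ± 0.40, limma adjusted p = 0.00101). EGLN3, an oxygen sensor that is itself hypoxia-induced, was the exception at 218, 211 and 201 against 18.4, 6.35 and 14.1 (log2 4.03 ± 0.39, limma adjusted p = 6.5e-05). ANKRD37 differed by -2.20.

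Calls among nuclear and among mitochondrial genes for the respiratory chain had opposite directions. Of 32 nuclear genes 12 were higher in the SAR302503 line and 0 in the BMS911543 line (median log2 -0.42). Without BMS911543 libraries 1, 2 and 3 and SAR302503 library 1 these were 2, 1, 2 and 3. Without SAR302503 library 3 they were 19, with 2 higher in the BMS911543 line. This count therefore depends strongly on which libraries are in the fit. COX5B, a subunit of cytochrome oxidase, was 1896, 1773 and 1746 against 3264, 2840 and 3681 (log2 -0.85 ± 0.14, limma adjusted p = 0.0017).

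Of 13 mitochondrially encoded genes, 11 were higher in the BMS911543 line and 0 in the SAR302503 line (median log2 1.04). The 11 became 7 without BMS911543 library 1 or 2. MT-CYB, or cytochrome b, was 60011, 53913 and 43582 against 9911, 17409.9 and 21051 (log2 1.76 ± 0.25, limma adjusted p = 0.00063), and MT-ATP6, a subunit of ATP synthase, was 32504, 35217 and 24369.9 against 7944, 13222 and 16865 (log2 1.33 ± 0.25, limma adjusted p = 0.00338). Together these 13 genes took 3.48%, 3.20% and 2.71% of normalised counts in the BMS911543 libraries and 1.22%, 2.17% and 2.01% in the SAR302503 libraries, while naive libraries ranged from 1.78% to 2.56%. SAR302503 library 1 was the lowest. This share can also follow RNA quality, whose part was not tested. MT-ATP8, a short gene that overlaps MT-ATP6, was 449, 735 and 634 against 18.4, 45.7 and 207 (log2 3.37, and 4.303 without SAR302503 library 3), and its reads can be split with its neighbour.

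Most calls among ribosome biogenesis genes and those among ribosomal protein genes also had opposite directions. Of 32 biogenesis genes 11 were higher in the BMS911543 line and 2 in the SAR302503 line (median log2 0.29), and the 11 became 5, 3, 3 and 6 without BMS911543 libraries 1, 2 and 3 and SAR302503 library 1. POLR1B, a subunit of RNA polymerase I, was 1897, 1867 and 1989 against 908, 1151 and 819.9 (log2 1.01 ± 0.16, limma adjusted p = 0.00123). UTP20, an assembly factor, was 1815, 1725 and 1668 against 1083, 1084 and 964 (log2 0.73 ± 0.14, limma adjusted p = 0.00328).

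Of 34 cytosolic ribosomal protein genes, 13 were higher in the SAR302503 line and 0 in the BMS911543 line (median log2 -0.46, and -0.23 without SAR302503 library 3). The 13 became 6 and 8 without BMS911543 libraries 1 and 2, and 2 were higher in the BMS911543 line without SAR302503 library 3. RPS4X, a small subunit protein, was 31126, 29546 and 26756 against 49197, 50510.3 and 57132 (log2 -0.84 ± 0.13, limma adjusted p = 0.00109). RPS23 and RPS6 differed by -0.80 and -0.77. In the MYC network 3 genes were higher in each line, and the 3 higher in the SAR302503 line became 0 without BMS911543 library 2 and 5 without SAR302503 library 3. Among those higher in the BMS911543 line was MYCN, a MYC paralog (181, 198 and 159 against 10.4, 35.6 and 28.2, log2 2.97 ± 0.42, limma adjusted p = 0.00073).

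Platelet genes differed by gene, with the widest gaps higher in the BMS911543 line. Of 27 megakaryocyte and platelet genes 12 were higher there, 3 were higher in the SAR302503 line and 12 were not called (median log2 0.46); the 12 higher in the BMS911543 line became 7 without BMS911543 library 2 and 8 without BMS911543 library 1 or SAR302503 library 1, and the 3 became 5 without SAR302503 library 3. PPBP, a platelet granule chemokine, was 372, 411 and 402 in the BMS911543 line, with 1211 reads in all, and 0, 0 and 0.881 in the SAR302503 line, with 1 read. The ratio of its normalised reads was 1187 (95% interval for counting error 213 to 46940), and the fitted difference was log2 8.32 ± 0.45, limma adjusted p = 1.1e-06. VWF, von Willebrand factor, was 1079.6, 778 and 627 against 0, 3.81 and 12.3 (log2 7.66 ± 0.74, limma adjusted p = 5.9e-05; log2 8.53 without SAR302503 library 3).

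THBS1, thrombospondin of platelet granules, was 24454, 23937 and 25106 against 336, 651 and 624 (log2 5.57 ± 0.22, limma adjusted p = 2.2e-07). Naive cells had 665 ± 71.0 (SD) and the INC424 persistent line 11582 ± 381 (SD), so the SAR302503 line shared the naive level. TREML1, a platelet granule receptor, was 23.7, 33.2 and 26.4 against 0, 0 and 0, at least 27.8-fold higher against a floor of 3 reads over the SAR302503 group (limma adjusted p = 0.00083). Among the platelet glycoproteins of the von Willebrand factor receptor, GP9 was higher in the SAR302503 line (556, 579.9 and 614 against 1303, 934 and 1779.8, log2 -1.15 ± 0.22, limma adjusted p = 0.0036) and GP5 in the BMS911543 line (646, 643 and 643 against 431, 343 and 398, log2 0.73 ± 0.17, limma adjusted p = 0.00957). GP1BA was not called (1407, 1289.6 and 1363 against 1261, 1286 and 1634, log2 -0.03).

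Globins split by gene. Of 11 genes on the list 3 were higher in the BMS911543 line and 1 in the SAR302503 line, or 5 and 1 without SAR302503 library 3. HBA2, an alpha globin, was 13439, 15153 and 10136 against 1458, 1018 and 3818 (log2 2.84 ± 0.38, limma adjusted p = 0.00052), and HBA1 was 13911, 12869 and 9551 against 3623, 2944 and 7508 (log2 1.47 ± 0.29, limma adjusted p = 0.00484); the 2 genes are near-identical, so their reads can be split. HBE1, embryonic epsilon globin, was 5321, 7129 and 5863 against 14532, 9722 and 15432 (log2 -1.10 ± 0.19, limma adjusted p = 0.00202), a call lost with all 24 libraries in the fit (adjusted p = 0.0562). HBZ, embryonic zeta globin, was 181, 161 and 126 against 41.4, 36.9 and 129 (log2 1.39 ± 0.44, limma adjusted p = 0.0384), with SAR302503 library 3 inside the BMS911543 range and a call lost in 9 of 22 alternatives.

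The fetal globins were not called. HBG2 was 247004, 275961 and 246855 against 210672, 189162 and 296751 (log2 0.17, 95% interval -0.23 to 0.57) and HBG1, its near-identical copy, 21715, 28019 and 20305 against 35969.7, 22972 and 31734 (log2 -0.36). Adult HBB and HBD differed by 0.21 and -0.08, HBM by 1.58 and HBQ1 by 0.13. HBG2 and HBM were called without SAR302503 library 3 (limma adjusted p = 0.0427 and 0.031). AHSP, the alpha globin chaperone, was 122, 81.5 and 76.2 against 115, 199.5 and 129 (log2 -0.65). In these genes the mean of each line was above the naive mean, which was 40189 ± 5059.7 (SD) for HBG2.

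Of 21 red cell membrane genes 9 were higher in the BMS911543 line and 4 in the SAR302503 line (median log2 0.27). SLC4A1, the band 3 anion exchanger, was 4052, 3316 and 3632 against 689.6, 719 and 869 (log2 2.27 ± 0.15, limma adjusted p = 4.3e-06), and naive cells had 147 ± 37.7 (SD). EPB42, which binds band 3, was 2676, 2637 and 2484 against 751, 726 and 715 (log2 1.83 ± 0.13, limma adjusted p = 7.4e-06). GYPB and GYPE, glycophorins whose reads can be split among near-copies, differed by 1.499 and 1.56. Without BMS911543 library 1 the 9 became 6.

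Some genes of iron handling were higher in the BMS911543 line as well. HMOX1, haem oxygenase, was 2932, 2722 and 2758 against 848, 722 and 1401 (log2 1.56 ± 0.22, limma adjusted p = 0.00064), and TFRC, the transferrin receptor, was 64258, 62336 and 62383 against 30353, 33540.1 and 23734 (log2 1.12 ± 0.15, limma adjusted p = 0.00045). CPOX, an enzyme of haem synthesis, was higher in the SAR302503 line (1978, 1948 and 2563 against 5714, 5624 and 4257, log2 -1.26 ± 0.17, limma adjusted p = 0.00043). Of 15 genes on that list 4 were higher in the BMS911543 line and 2 in the SAR302503 line, and without SAR302503 library 3 the numbers were 9 and 2; the 2 became 1 without BMS911543 library 1, 2 or 3 or SAR302503 library 1. Among 18 lineage transcription factors 6 were higher in the BMS911543 line and 1 in the SAR302503 line, and the 6 became 1 to 2 without BMS911543 library 1, 2 or 3 or SAR302503 library 1. The 1 was GATA2, a progenitor factor, at 9067, 8029.6 and 7873 against 17411, 13884 and 22864 (log2 -1.09 ± 0.17, limma adjusted p = 0.00142).

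Lists of other blood lineages and of progenitors held more calls higher in the SAR302503 line than in the BMS911543 line. Of 14 stem and progenitor genes 6 were higher there and 2 in the BMS911543 line. CD34, the progenitor surface marker, was 14553, 13096 and 13334 against 26492, 26307 and 27878 (log2 -0.98 ± 0.12, limma adjusted p = 0.00027), the latter near the naive 31671 ± 2509 (SD). NPR3, a natriuretic peptide receptor, was 349, 323 and 249 against 39.1, 41.9 and 95.1 (log2 2.47 ± 0.34, limma adjusted p = 0.00062). Of 17 granulocyte and monocyte genes 8 were higher in the SAR302503 line and 1 in the BMS911543 line, among them ITGAX, the CD11c integrin chain (295, 272 and 239.9 against 1660.2, 1696 and 1575, log2 -2.61 ± 0.16, limma adjusted p = 2.3e-06).

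VCAN, a matrix proteoglycan of monocytes, was 0.912, 2.01 and 2.03 against 86.3, 137 and 80.1 (log2 -5.26 ± 0.50, limma adjusted p = 5.1e-05). Of 12 mast cell, basophil and eosinophil genes 5 were higher in the SAR302503 line and 2 in the BMS911543 line; the 5 became 3 without BMS911543 library 3 or SAR302503 library 1 or 2, and the 2 became 4 without SAR302503 library 3. PRG2, an eosinophil granule protein, was 7.29, 7.05 and 6.10 against 52.96, 71.2 and 66.9 (log2 -3.04 ± 0.41, limma adjusted p = 0.00054), and TPSAB1, a mast cell tryptase, was 31.0, 42.3 and 44.7 against 2.30, 3.81 and 8.81 (log2 2.89 ± 0.56, limma adjusted p = 0.00416). Both lines were far below naive cells in these genes, which had 1613 ± 91.3 (SD) and 425 ± 46.1 (SD).

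Of 14 lymphoid genes 8 were higher in the SAR302503 line and 2 in the BMS911543 line, the 2 falling to 0 without BMS911543 library 1 or 2 or SAR302503 library 1. Among the 8, PRF1, NKG7 and CD4 were highest in naive cells, at 3624 ± 256 (SD), 462 ± 15.4 (SD) and 15329 ± 862 (SD). Their means were 316, 34.7 and 5646 in the BMS911543 line and 831, 269 and 7788 in the SAR302503 line. CD79A was near naive in the SAR302503 line, and CD3D, CD3E, CD3G and ZAP70 exceeded naive cells there. CD3D, a T cell receptor subunit, was 1.82, 1.01 and 6.10 against 127, 76.2 and 172 (log2 -5.12 ± 0.57, limma adjusted p = 0.00016), with 44.96 ± 26.1 (SD) in naive cells. CD3G was 0, 0 and 0 against 39.1, 24.1 and 15.9, at least 24.1-fold higher in the SAR302503 line against a floor of 3 reads over the BMS911543 group (limma adjusted p = 0.0014). CD3E, another subunit, was 2.74, 6.04 and 0 against 12.7, 31.8 and 49.3 (log2 -3.25 ± 0.83, limma adjusted p = 0.0166). CD3D and CD3E were highest in SAR302503 library 3, the library richest in squamous genes, and CD3G was lowest there among the SAR302503 libraries; the part of foreign RNA in these genes was not tested. TRAC, a T cell receptor constant chain, went the other way (20.1, 10.1 and 15.2 against 0, 0 and 6.16, log2 3.02, and 3.96 without SAR302503 library 3), a call lost in 8 of 22 alternatives. CD3D, CD3E, CD3G and TRAC reached a count of 10 only in the line where they were higher. They could therefore be called in that direction alone. The same holds for PRG2, TPSAB1, VCAN, ID4, IL2RA, IL10RA, ETV1, HLA-DQA1, INHBE, COL4A2, PPBP, TREML1 and DPPA4, among other genes named here.

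Interferon-stimulated genes were divided. Of 39 tested, 9 were higher in the BMS911543 line (all genes, 11.7%) and 8 in the SAR302503 line (all genes, 14.7%). The 8 became 5 without BMS911543 library 1 or SAR302503 library 1. The median of 0.02 turned to -0.07 with edgeR and -0.06 with DESeq2, and below 0 without any 1 library other than SAR302503 library 3. IFIT1, an antiviral RNA sensor, was 271, 330.2 and 376 against 74.8, 85.1 and 36.1 (log2 2.38 ± 0.33, limma adjusted p = 0.00059), and IFIT2, its relative, was 760.5, 963 and 886 against 249, 428 and 170 (log2 1.72 ± 0.29, limma adjusted p = 0.00192). RSAD2, or viperin, went the other way at 221, 239 and 260.2 against 919.9, 974.6 and 846 (log2 -1.93 ± 0.17, limma adjusted p = 2.7e-05), as did HERC5, a ligase for ISG15 (323, 384 and 466 against 1310.2, 1431 and 966, log2 -1.66 ± 0.20, limma adjusted p = 0.00029). Both pairs were without overlap between the lines, so the list had no common direction.

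NF-kB genes were likewise balanced, 4 of 20 higher in each line, not far from the 11.7% and 14.7% of all genes tested. Those higher in the BMS911543 line became 2 without BMS911543 library 1, 2 or 3 or SAR302503 library 1. TNFAIP3, a brake on NF-kB, was 437, 369 and 409.6 against 80.6, 112 and 124 (log2 1.95 ± 0.23, limma adjusted p = 0.00022) and IL8, a chemokine, was 113, 131 and 103 against 6.91, 54.6 and 8.81 (log2 2.83 ± 0.63, limma adjusted p = 0.0087). ICAM1, an adhesion molecule, was 849.8, 777 and 964 against 1901, 1849 and 2771 (log2 -1.31 ± 0.18, limma adjusted p = 0.00062).

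Secreted and surface regulators held some of the wider gaps. IGFBP5, a binding protein of insulin-like growth factors, was 3410.3, 3136 and 3088 against 73.7, 114 and 106 (log2 5.04 ± 0.19, limma adjusted p = 2.1e-07), whereas IGFBP2, of the same family, was 1309, 1257 and 1185 against 6927, 6768 and 12054 (log2 -2.73 ± 0.21, limma adjusted p = 1e-05). INSR, the insulin receptor, was 1422, 1283 and 1236 against 3374, 2912 and 2811 (log2 -1.20 ± 0.14, limma adjusted p = 0.0002). Of the 12 genes on this list 3 were higher in the BMS911543 line (all genes, 11.7%) and 4 in the SAR302503 line (all genes, 14.7%). The 4 became 2 without BMS911543 library 2.

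In the TGF-beta and BMP feedback list 3 of 18 genes were higher in the BMS911543 line (all genes, 11.7%) and 4 in the SAR302503 line (all genes, 14.7%). These became 5 and 7 without SAR302503 library 3. SMAD6, an inhibitor of BMP signalling, was 1079.6, 946 and 1011 against 214, 250.3 and 296 (log2 2.00 ± 0.18, limma adjusted p = 3.3e-05), and ID4, a BMP target, was 0.912, 6.04 and 1.02 against 117, 144 and 105 (log2 -5.34 ± 0.58, limma adjusted p = 0.00013). GDF15, a stress-induced cytokine, was 41.9, 23.2 and 28.5 against 197, 139.8 and 371 (log2 -2.80 ± 0.39, limma adjusted p = 0.00061). Integrins and adhesion genes were called in 18 of 25 cases, 8 higher in the BMS911543 line and 10 in the SAR302503 line. The 8 became 4 without BMS911543 library 1 and 5 without BMS911543 library 2 or 3 or SAR302503 library 1, and the 10 became 6 without BMS911543 library 1. CXCR4, the receptor for the marrow chemokine CXCL12, was 352, 393 and 446 against 48.4, 75.0 and 45.8 (log2 2.82 ± 0.26, limma adjusted p = 4e-05).

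Drug efflux pumps differed by gene, 3 of 12 higher in the BMS911543 line (all genes, 11.7%) and 2 in the SAR302503 line (all genes, 14.7%). The 2 became 1 without BMS911543 library 1, 2 or 3 or SAR302503 library 1. ABCG2, which exports many kinase inhibitors, was 282, 261 and 223 against 32.2, 34.3 and 15.9 (log2 3.24 ± 0.34, limma adjusted p = 9.7e-05), with 48.2 ± 24.1 (SD) in naive cells. ABCB1, or P-glycoprotein, was 838, 877 and 966 against 2834, 2703 and 1988 (log2 -1.47 ± 0.17, limma adjusted p = 0.00017), with 1077 ± 137 (SD) in naive cells. Each line was thus above naive cells in 1 of the 2 pumps by its mean, and the libraries of the lines did not overlap in either.

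Among FOXO-induced genes 4 of 17 were higher in each line, beside 11.7% and 14.7% of all genes tested. TRIB2, a pseudokinase, was 13504, 13408 and 13817 against 2375, 2562 and 2262 (log2 2.50 ± 0.12, limma adjusted p = 7.5e-07), and CCNG2, an atypical cyclin, was 432, 447 and 407 against 1119, 1306 and 882 (log2 -1.34 ± 0.18, limma adjusted p = 0.00048). Of 19 NRF2 and pentose phosphate genes 3 were higher in the BMS911543 line (all genes, 11.7%) and 1 in the SAR302503 line (all genes, 14.7%). These became 7 and 2 without SAR302503 library 3. ME1, malic enzyme, was 528, 535 and 501 against 100.2, 105 and 238 (log2 1.93 ± 0.31, limma adjusted p = 0.00131). Of 30 cholesterol genes 4 were higher in the BMS911543 line (all genes, 11.7%) and 1 in the SAR302503 line (all genes, 14.7%). These became 12 and 3 without SAR302503 library 3. The 4 became 2 without BMS911543 library 1, 2 or 3 or SAR302503 library 1. ABCG1, a cholesterol exporter, was 173, 211 and 127 against 6.91, 12.7 and 29.1 (log2 3.502 ± 0.47, limma adjusted p = 0.00054).

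Chromatin modifiers were called in 8 of 26 cases, a share near the 26.4% of all genes tested, 3 higher in the BMS911543 line and 5 in the SAR302503 line. The 3 became 1 without BMS911543 library 1. The 5 became 12 without SAR302503 library 3, where 23.5% of all genes were higher in the SAR302503 line. EED, a core subunit of Polycomb complex 2, was 2914, 2856 and 3024 against 9426, 10168 and 5631 (log2 -1.47 ± 0.20, limma adjusted p = 0.00055), and EZH2, its catalytic partner, differed by -0.79, a call lost without BMS911543 library 1 or SAR302503 library 1 (limma adjusted p = 0.0541 and 0.0608). CREBBP, a histone acetyltransferase, was 7087, 6462 and 6385 against 4485, 4004 and 3885 (log2 0.69 ± 0.12, limma adjusted p = 0.00285). Replication-dependent histone genes, whose messages mostly lack poly(A) tails, had 1 of 14 called in each direction; the 1 higher in the SAR302503 line was lost without BMS911543 library 2 or 3 or SAR302503 library 1.

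More than 1 in 2 of the listed collagen genes were higher in the SAR302503 line, 8 of 14 against 1 in the BMS911543 line (median log2 -1.40, and 6 of 14 higher in the SAR302503 line without SAR302503 library 3). COL20A1, higher in the BMS911543 line, and COL15A1, higher in the SAR302503 line, are collagen genes outside this list. COL17A1, a hemidesmosome collagen of epithelium, was 0.912, 0 and 47.8 against 95.6, 233 and 1632 (log2 -6.20 ± 1.34, limma adjusted p = 0.00724), and COL4A2, of basement membranes, was 7.29, 0 and 4.07 against 24.2, 78.8 and 298 (log2 -4.60 ± 0.96, limma adjusted p = 0.006; log2 -3.69 without SAR302503 library 3). SAR302503 library 3 was by far the highest in both, as it was in KRT14, and the part of epithelial RNA in them was not tested. With all 24 libraries in the fit neither was called (adjusted p = 0.0606 and 0.153).

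**Figure D5:**
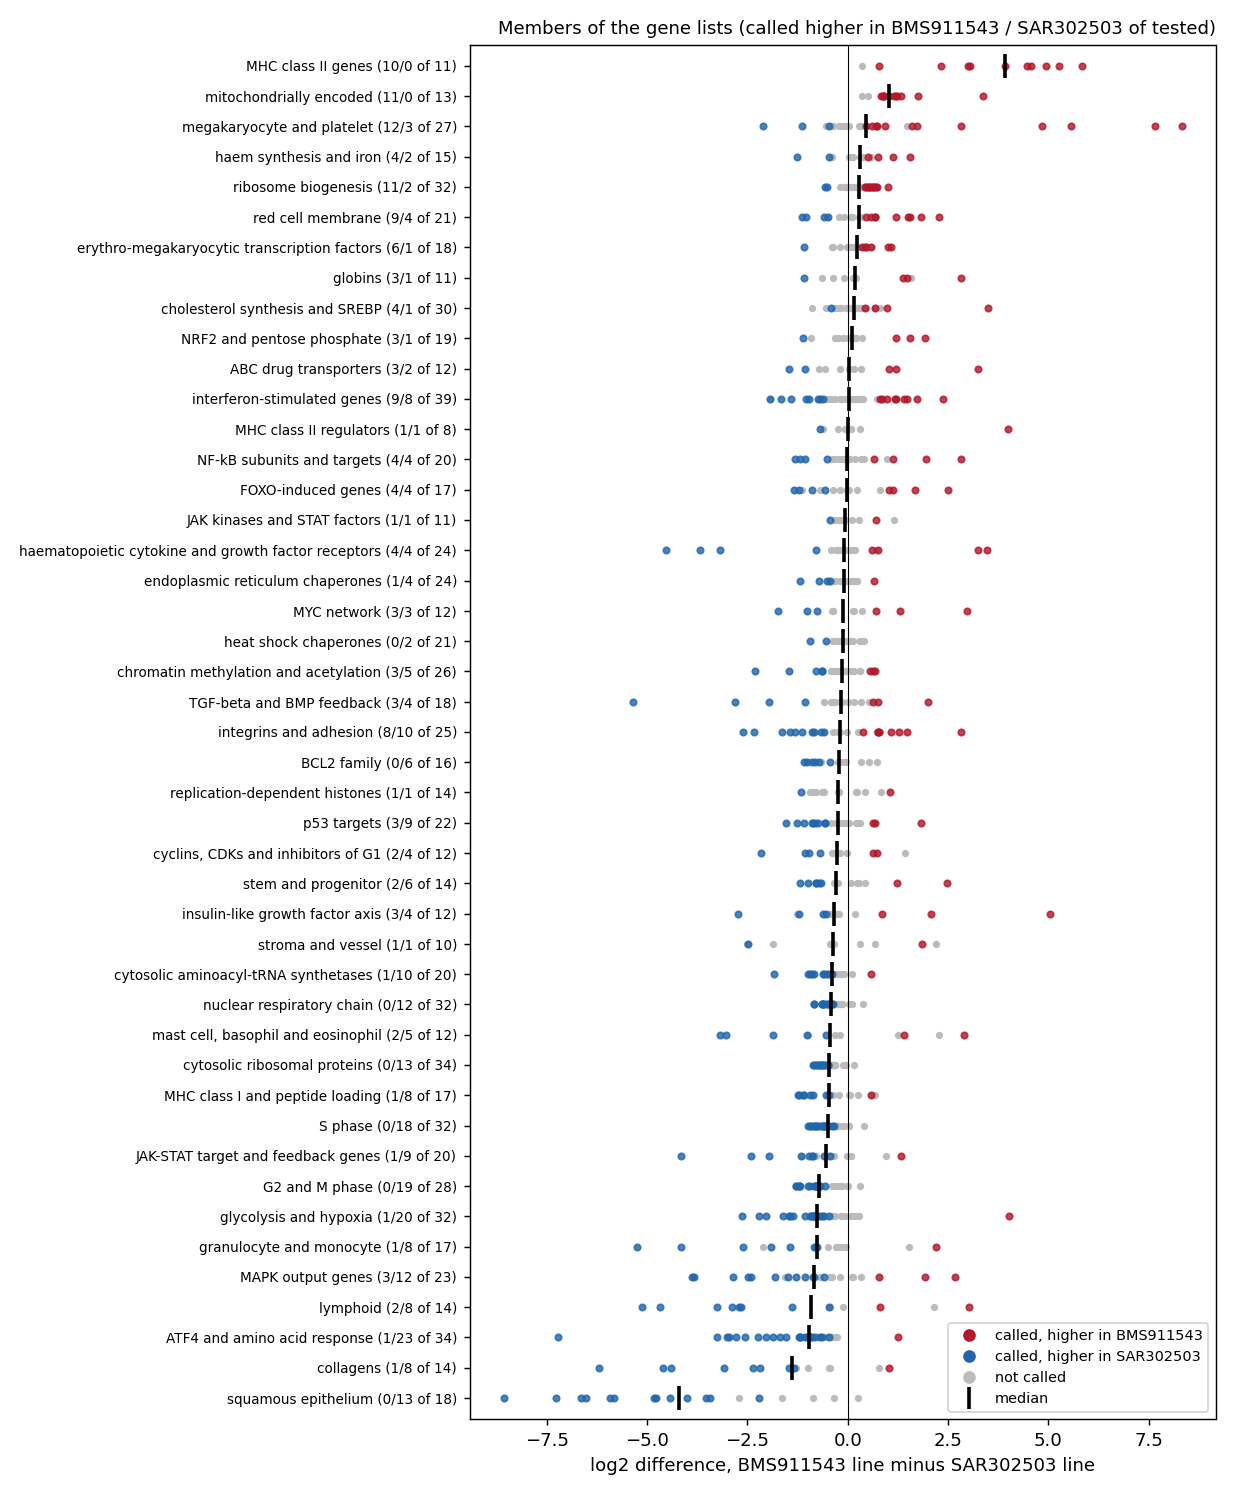
Log2 difference between the lines (horizontal axis) for each tested member of 45 gene lists, ordered by the list median (black tick), with called members in red or blue and the counts called higher in the BMS911543 line, in the SAR302503 line and tested after each name. MHC class II (median 3.91) lies at one end and squamous epithelium (median -4.22) at the other.

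The naming rule left out squamous, stroma and vessel markers, and the widest of the remaining genes belonged mostly to none of these lists. Left out were KRT14, KRT6A and KRT5, for example, with log2 differences of -8.58, -7.28 and -6.66. In the BMS911543 line the widest was COL20A1, a collagen gene outside the collagen list, at 2587, 2145 and 1973 against 3.45, 1.27 and 7.93 (log2 8.95 ± 0.43, limma adjusted p = 7.5e-07). CABP7, a calcium-binding protein, was 919, 816 and 1022 against 0, 0 and 8.81 (log2 8.74 ± 0.74, limma adjusted p = 2.4e-05; log2 9.84 without SAR302503 library 3). DLK1, a Notch-related ligand of progenitor cells, was 20584, 17152 and 14251 against 49.5, 64.8 and 77.5 (log2 8.07 ± 0.20, limma adjusted p = 9.2e-09), while naive cells had 578 ± 20.5 (SD). The naive mean of DLK1 thus lay between the lines, far from each.

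WSCD2 was 399, 323 and 311 against 0, 1.27 and 0, which is 1065 reads against 1 and a ratio of 1044 (95% interval for counting error 187 to 41286; log2 8.03 ± 0.48, limma adjusted p = 2.3e-06). ITLN1, the lectin intelectin, was 1811, 1948 and 1800.2 against 5.76, 24.1 and 15.9 (log2 7.03 ± 0.40, limma adjusted p = 1.7e-06). CILP, a cartilage matrix protein, and KCNJ5, a potassium channel, differed by 6.70 and 6.04, or 5.98 and 5.45 without SAR302503 library 3. NPY1R, a neuropeptide Y receptor, was 670.2, 611 and 603 against 5.76, 7.62 and 5.28 (log2 6.46 ± 0.29, limma adjusted p = 4.9e-07). HERC2P8 and HERC2P4 are pseudogene copies of HERC2 whose reads can be split among copies, and their differences of 6.68 and 6.50 are uncertain for that reason.

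In the SAR302503 line the widest was DPPA4, a chromatin factor of pluripotent cells, at 1.82, 0 and 0 against 754, 816 and 689.6 (log2 -9.06 ± 0.47, limma adjusted p = 9.5e-07). The ratio of 2080 reads to 2 was 1061 (95% interval for counting error 293 to 8764), and the INC424 persistent line had 77.0 ± 11.6 (SD). COL15A1, a basement membrane collagen, had 0 reads in the BMS911543 line and 276, 243 and 321 in the SAR302503 line, at least 270-fold higher against a floor of 3 reads over the BMS911543 group (limma adjusted p = 1.5e-06). Its level was similar in all 3 SAR302503 libraries, unlike that of KRT14.

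BSPRY was 2.74, 0 and 1.02 against 165, 179 and 203 (log2 -6.54 ± 0.55, limma adjusted p = 2.1e-05) and NXF4 was 0.912, 5.03 and 3.05 against 318, 281 and 317 (log2 -6.41 ± 0.46, limma adjusted p = 7.3e-06). For DPPA4, COL15A1, INHBE, BSPRY and NXF4 the 3 SAR302503 libraries lay close together. A further 6 of the widest were highest in SAR302503 library 3. GPX2, an epithelial glutathione peroxidase, was 0.912, 0 and 2.03 against 153, 95.3 and 1790.4 (log2 -7.38, and -6.08 without that library). KRT19, a simple epithelial keratin, was 0, 0 and 4.07 against 73.7, 116 and 1376 (log2 -7.06, and -5.76 without it). AKR1B10, COL17A1, MYH14 and FBN2 had the same pattern, with log2 differences of -5.16, -5.05, -5.06 and -4.81 without it. In these 6 genes the order of the SAR302503 libraries put library 3 first, as in KRT14. Their call without that library was a condition of the naming rule and is no separate result.

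A few other genes were even across the SAR302503 libraries and are named here after their values were seen. ALOX15, a lipoxygenase, was 57.4, 50.3 and 47.8 against 1629, 1741 and 2239.5 (log2 -5.14 ± 0.20, limma adjusted p = 2.1e-07), and naive cells had 843 ± 42.9 (SD). WNT5A, a Wnt ligand, was 24.6, 8.05 and 8.13 against 372, 451 and 566 (log2 -5.15 ± 0.42, limma adjusted p = 1.7e-05), and FBLN2, a matrix protein, was 15.5, 42.3 and 27.4 against 1102, 723 and 1341 (log2 -5.23 ± 0.36, limma adjusted p = 5.4e-06). ADCYAP1, a neuropeptide, was 8.21, 12.1 and 35.6 against 900.3, 837 and 793 (log2 -5.69 ± 0.43, limma adjusted p = 1.1e-05), and both lines were far below the naive 22205 ± 971 (SD).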

How the data were processed

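Poly(A) RNA of SET2 sublines was sequenced, and 6 of 24 libraries were analysed as 2 groups of 3, taken from the sample titles. The deposited values are a signal, normalised gene read counts, and their steps are those of whole reads that the authors divided by 1 factor per library. Per the submitters' processing notes, the tools named are DESeq 1.10.1, HTSeq 0.5.3p3 and BWA 0.7.5.1, and the builds hg19 and GRCh37; whether counting used strand is not given in the sources used here, so a gene and its antisense partner may share reads. In every library 100% of values were whole multiples of 1 step within a tolerance of 0.01, which returned 23108234 to 33824160 reads per library; the step of BMS911543 library 2 is within 0.01 of 1.

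Genes whose normalised count reached 10 in 3 or more of the 6 libraries were tested with limma 3.58.1 (R 4.3.3; empirical Bayes with a mean trend, 4 residual degrees of freedom) on log2(count + 1), with Benjamini-Hochberg adjustment over 17292 genes and a threshold of 0.05. The recovered reads were tested with edgeR 4.0.16 (4430 genes called) and DESeq2 1.42.0 (5103) as alternatives, beside other pseudocounts, filters, scalings, variance models and sets of libraries. Folds against 0 reads used a floor of 3 reads over the group; they and their intervals cover counting error only, since reads without molecular identifiers are not independent molecules.

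The comparison, the 45 gene lists and the members were chosen with earlier results of these data known. Genes were named by a rule: the 12 widest called differences in each direction with a mean of at least 50, no overlap, no squamous, stroma or vessel marker, and a call without SAR302503 library 3; up to 4 called members of each list with the widest differences, or up to 2 of the highest mean where none was called; and JAK1, JAK2, JAK3, TYK2, STAT5A, STAT5B, the MHC class II genes, their regulators and the globins. Some of these are left to the counts, and a few are not reported here. Outside the rule are the identity, squamous and stroma markers, CD79A, CD4, NKG7, PRF1, ZAP70, GP1BA, GP5, CISH, SOCS2, ATF4, CHAC1, ALOX15, WNT5A, FBLN2 and ADCYAP1, named after their values were seen. On simulated counts the same procedure called 7.5% of 1.5-fold, 32.8% of 2-fold and 75.8% of 4-fold changes in the right direction. It also called 6 of 17092 unchanged genes. The simulation changed far fewer genes than were called here, so these shares need not hold for the data. A gene that was not called can still differ. Promoter sequences are those of RefSeq on GRCh38.p14, matched by symbol, and no coordinate was converted between builds.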

Additional observations from a re-analysis of the deposited data

How the results depend on the processing

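Of 190 called genes selected by the naming rule, 149 kept the call in each of the 22 alternative settings, 41 lost it in at least 1 and 0 reversed. The number of called genes was within 1.5 times of 4558 in all settings that kept the 6 libraries alone, except with sample quality weights (9795 genes, 4704 higher in the BMS911543 line and 5091 in the SAR302503 line). It was 7249 (3377 and 3872) with all libraries but CYT387 library 2 in the fit. Leaving out 1 library at a time gave 2283 to 7551 genes, 912 to 3496 higher in the BMS911543 line and 1371 to 4055 in the SAR302503 line, the lower ends without BMS911543 library 2 and the upper ends without SAR302503 library 3. The cause was not tested. Among genes called both here and in an alternative setting, 0 changed direction. Among genes that were not called, upper-quartile scaling reversed the log2 difference of JAK1 (0.0238), CREB1 (0.0233) and HBD (0.002). Leaving out 1 library turned the sign of 6: JAK1 ranged from -0.1425 to 0.0288, TYK2 from -0.0882 to 0.3021, CREB1 from -0.1568 to 0.0505, NFYA from -0.0489 to 0.1884, HBD from -0.2176 to 0.0825 and HBQ1 from -0.1602 to 0.5422. The medians of 10 lists changed sign in at least 1 setting.

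Same-numbered libraries of the lines did not deviate together (correlations of 0.058, -0.026 and 0.027 for numbers 1, 2 and 3). The labels do not pair them, and whether they share a batch was not tested. With the replicate number as a block 4140 genes were called, 1868 higher in the BMS911543 line and 2272 in the SAR302503 line. With 3 libraries a line and the strand of counting unknown, small differences and overlapping genes are the least certain.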
